A study of Mus musculus with 12 samples.

Results

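The immunoglobulin heavy chain variable genes, written Ighv in the mouse, were described in B cells of Peyer's patches (PP) from 6 sham controls and 6 stroke mice. Every row of the expression table whose gene name begins with Ighv and a digit was taken as a member, which gave 185 of 36175 genes. The choice did not use any expression value. Of the 185 members, 113 are annotated as functional variable genes, 70 as variable pseudogenes and 2 carry the annotation code IG_LV_gene, and 183 lie on the minus strand. All 185 matched the annotation of GRCm38 by their Ensembl identifier and lie at chr12:113572927-116010093, beside the diversity (D) segments at chr12:113430528-113528054, the joining (J) segments at chr12:113428514-113429833 and the constant gene Ighm at chr12:113418558-113422730. The numbers in the names divide them into 16 families.

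RNA-seq was performed on 1 library per mouse, 18 h after surgery, to ask how a brain injury changes the transcriptome of PP B cells. All mice were wild-type C57BL/6JHsd males aged 10 to 12 weeks. In stroke mice the middle cerebral artery was occluded with a filament for 1 h (transient middle cerebral artery occlusion), whereas in sham controls the filament was withdrawn from the common carotid artery at once. B cells were enriched with a magnetic pan-B-cell kit and then with CD45 beads, and the methods mention some remaining gut epithelial and endothelial cells after the first step and state a high B cell purity after the second.

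A heavy chain is made from a V, a D and a J segment that are joined in the DNA of each developing B cell, and the V segment encodes most of the antigen-binding variable domain. A B cell uses 1 productive heavy chain rearrangement and passes it to its daughters, so the Ighv transcripts of a tissue reflect which clones are present, how many cells each clone has and how much antibody RNA each cell makes. Plasma cells make far more antibody RNA than resting B cells, and PP are a site where B cells respond to gut antigens and switch to IgA. In bulk samples such as these, fewer cells of a clone and less RNA per cell cannot be told apart.

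The coding part of the 91 members that passed the expression filter described below is 347 to 394 bases long, with a median of 351, and in all 91 it lies in 2 exons, a short leader exon and the exon of the variable domain. Many members are close copies. The tested members were a median of 95.1% identical to their nearest member, from 73.5% to 99.7%, and a median of 55.1% of the 31-base words in their annotated transcripts occur in no other annotated transcript. The word length of 31 is the default of kallisto, the program that assigned the reads. The sequences of 2 pairs are shown first because they show how far the most abundant members can be told apart. They are the final 300 coding bases, 5′ to 3′, from GENCODE M21 transcripts on GRCm38, all on the minus strand within the second exon, and capitals mark bases that differ from the nearest member. Ighv1-26, the member with the highest mean value, lies at chr12:114788372-114788671, and its nearest member Ighv1-18 lies at chr12:114682632-114682931. They are 96.9% identical and differ at 8 of the 300 bases shown.
Ighv1-26: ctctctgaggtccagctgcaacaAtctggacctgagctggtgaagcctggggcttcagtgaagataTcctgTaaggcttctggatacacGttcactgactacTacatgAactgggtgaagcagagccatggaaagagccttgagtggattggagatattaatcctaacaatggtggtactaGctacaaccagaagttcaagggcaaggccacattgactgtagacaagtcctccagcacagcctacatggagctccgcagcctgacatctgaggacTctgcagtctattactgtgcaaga
Ighv1-18: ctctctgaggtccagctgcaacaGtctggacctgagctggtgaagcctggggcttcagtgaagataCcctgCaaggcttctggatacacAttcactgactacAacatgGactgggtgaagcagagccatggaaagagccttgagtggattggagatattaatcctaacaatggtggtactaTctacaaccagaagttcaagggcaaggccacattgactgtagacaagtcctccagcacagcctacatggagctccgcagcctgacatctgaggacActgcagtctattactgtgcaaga

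Ighv1-72 at chr12:115757984-115758283 and Ighv1-62-3 at chr12:115460999-115461298 are 99.1% identical and differ at 3 of the 300 bases shown. Only 1.91% of the 31-base words of Ighv1-72 are its own, the lowest of the 91, so the split of reads between this pair is uncertain. The same holds for Ighv1-71, with 2.43% unique words, and Ighv1-62-2, with 7.76%, which are 99.7% identical to each other.
Ighv1-72: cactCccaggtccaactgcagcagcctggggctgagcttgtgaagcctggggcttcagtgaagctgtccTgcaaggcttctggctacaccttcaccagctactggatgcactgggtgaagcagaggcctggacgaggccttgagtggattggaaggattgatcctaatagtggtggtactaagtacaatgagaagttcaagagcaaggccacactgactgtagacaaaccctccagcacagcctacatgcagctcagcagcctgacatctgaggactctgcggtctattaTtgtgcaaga
Ighv1-62-3: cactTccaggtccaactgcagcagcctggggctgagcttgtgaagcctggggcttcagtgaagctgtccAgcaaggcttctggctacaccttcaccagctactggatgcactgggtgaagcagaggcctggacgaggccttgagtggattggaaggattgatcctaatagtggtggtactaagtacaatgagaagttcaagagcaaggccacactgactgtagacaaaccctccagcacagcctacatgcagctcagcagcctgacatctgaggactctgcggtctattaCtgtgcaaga

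A further 4 members are shown because the comparison of the groups or of single mice turns on them. Ighv12-3 at chr12:114366521-114366820 and Ighv5-15 at chr12:113826646-113826945 had the smallest p-values of all tested members, and Ighv14-3 at chr12:114059845-114060144 and Ighv13-2 at chr12:114357759-114358058 were high in 1 mouse each. Ighv12-3 and Ighv13-2 are each less than 80% identical to any other member, with 97.8% and 100% unique words, and stand out by their many capitals. Ighv5-15 has 71.0% and Ighv14-3 58.5% unique words.
Ighv12-3: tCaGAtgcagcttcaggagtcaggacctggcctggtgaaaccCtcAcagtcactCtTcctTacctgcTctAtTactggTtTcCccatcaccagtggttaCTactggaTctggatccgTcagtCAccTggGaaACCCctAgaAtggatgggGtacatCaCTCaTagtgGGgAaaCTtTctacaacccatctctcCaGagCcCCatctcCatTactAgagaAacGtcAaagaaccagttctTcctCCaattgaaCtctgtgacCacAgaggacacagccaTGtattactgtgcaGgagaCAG
Ighv5-15: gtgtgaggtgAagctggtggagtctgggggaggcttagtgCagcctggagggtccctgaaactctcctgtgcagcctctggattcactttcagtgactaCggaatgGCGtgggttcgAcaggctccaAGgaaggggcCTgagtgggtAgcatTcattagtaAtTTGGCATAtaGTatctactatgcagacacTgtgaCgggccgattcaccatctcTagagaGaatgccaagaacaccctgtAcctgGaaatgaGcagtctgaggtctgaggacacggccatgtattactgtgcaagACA
Ighv14-3: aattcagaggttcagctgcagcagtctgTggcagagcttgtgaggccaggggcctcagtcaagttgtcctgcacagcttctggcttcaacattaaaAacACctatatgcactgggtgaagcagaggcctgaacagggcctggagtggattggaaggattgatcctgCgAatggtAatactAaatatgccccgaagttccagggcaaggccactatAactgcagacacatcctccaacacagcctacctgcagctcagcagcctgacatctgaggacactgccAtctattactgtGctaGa
Ighv13-2: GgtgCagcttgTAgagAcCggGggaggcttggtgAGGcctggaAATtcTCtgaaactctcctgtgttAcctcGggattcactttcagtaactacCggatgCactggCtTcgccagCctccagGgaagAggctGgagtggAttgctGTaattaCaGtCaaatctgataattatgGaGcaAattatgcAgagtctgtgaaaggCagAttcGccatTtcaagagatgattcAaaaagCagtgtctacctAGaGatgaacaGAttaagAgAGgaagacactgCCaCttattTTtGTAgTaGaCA

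The values are an expression signal that the depositors label as normalized TPM, a level per transcript length, and the sequencing depth is unknown. Their sum over all genes was lowest in sham control 6, at 559570, and highest in sham control 1, at 1404340. The 8 B cell markers were all above the filter, with a summed value of 1587 to 3207. Their means were 2873 ± 268 (SD, n = 6) for sham and 2503 ± 469 (SD, n = 6) for stroke. The log2 ratio was -0.20, with overlapping groups. Of the 8, 3 were higher in stroke mice. By limma, 2 had an unadjusted p under 0.05, against 6.12% of all genes tested, and 0 passed after adjustment. The plasma cell list, which includes Igha and Jchain, summed to 518 in sham control 6 and to 3299 in sham control 1. Its means were 2251 ± 996 (SD, n = 6) for sham and 1764 ± 819 (SD, n = 6) for stroke. The log2 ratio was -0.35, with overlapping groups. In stroke mice 2 of its 9 tested genes were higher, and 0 had an unadjusted p under 0.05 by limma, against the same 6.12%. The intestinal epithelium list summed to 1772 and 1661 in sham controls 1 and 2 and to 37.9 to 868 in the other mice. Its means were 760 ± 758 (SD, n = 6) for sham and 285 ± 322 (SD, n = 6) for stroke, a log2 ratio of -1.41 with overlapping groups, and 0 of its 6 tested genes were higher in stroke mice. Paneth cell, neutrophil and macrophage sums were also highest in sham control 1, at 74.1 and 276, and lowest in sham control 6, at 10.7 and 26.3. The part of these cells in the Ighv values was not tested.

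Of the 185 members, 16 were at 0 in all mice and 91 reached a value of 1 in each mouse, the filter for testing. These 91 comprised 90 of the 113 functional genes and 1 of the 70 pseudogenes. A further 78 members were detected in at least 1 mouse but did not pass the filter. Functional genes held 99.2% of the sum of all Ighv values, on average over the mice, and the 91 tested members 98.8%. Pseudogenes took 0.4798% to 1.06% of the sum in 11 mice and 1.999% in sham control 6.

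The Ighv sum, the value of all 185 members together, varied several-fold between mice of the same group. Sham controls ranged from 2542 to 12183, with a median of 9822. Stroke mice ranged from 3238 to 11431, with a median of 7911. The groups overlapped almost fully, with means of 8597 ± 3380 (SD, n = 6) for sham and 7626 ± 2836 (SD, n = 6) for stroke, a log2 ratio of -0.17. The direction was not stable, because scaling each mouse to the same total turned the log2 ratio to 0.02. Sham control 6 and stroke mouse 5 had the lowest sums, and without sham control 6 the log2 ratio was -0.36. Without stroke mouse 5 it was -0.02. Sham control 6 and stroke mouse 5 were also the mice with the lowest plasma cell sums, 518 and 727, which include the antibody transcripts Igha and Jchain. Without these 2 genes the sums were 246 and 207, again the lowest, in a range of 207 to 548 over the 12 mice. The list without them had means of 419 ± 111 (SD, n = 6) for sham and 351 ± 92.1 (SD, n = 6) for stroke. Its log2 ratio was -0.26, with overlapping groups. The B cell marker sum was lowest in stroke mouse 5, at 1587, with 2496 in the next mouse, but was 2653 in sham control 6.

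Sham control 6 and stroke mouse 5 also had the lowest constant gene and kappa sums, whereas the sum of the J segments was highest in sham control 6 and lowest in stroke mouse 5. Ighv per unit of heavy chain constant gene value (Ighm, Ighd, Igha, Ighe and the 4 Ighg genes) stayed between 1.07 and 1.41 in all 12 mice, with 1.26 ± 0.103 (SD, n = 6) for sham and 1.26 ± 0.114 (SD, n = 6) for stroke. Ighv per unit of the kappa light chain variable genes (Igkv, 160 rows) was 0.849 ± 0.144 (SD, n = 6) for sham and 0.924 ± 0.0448 (SD, n = 6) for stroke, and the groups overlapped. The 4 Ighj rows summed to 4997 in sham control 6, where the Ighv sum was lowest, and to between 1948 and 3597 in the other mice. Ighv per unit of Ighj value therefore was lowest in sham control 6, at 0.509, and highest in sham control 1, at 5.28. All 20 D segment rows were at 0 in all mice, and the 17 with an annotated length are 10 to 29 bases long, shorter than the 31-base words of the read assignment.

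**Figure D1:**
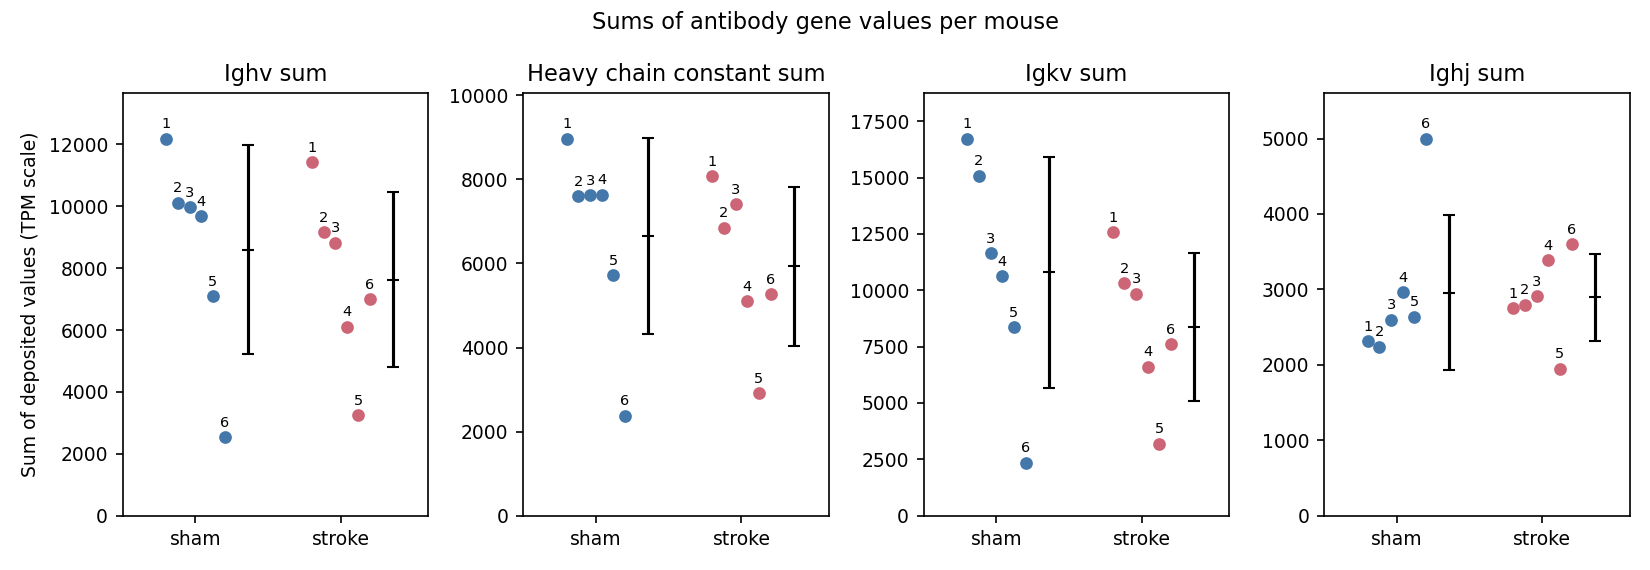
Sums of the deposited values (TPM scale, vertical axes from 0) for the Ighv, heavy chain constant, Igkv and Ighj genes, with 1 numbered point per mouse in sham and stroke groups and the mean ± SD as a black bar. Sham control 6 has the lowest Ighv sum (2542) and the highest Ighj sum (4997).

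The same few members were among the highest in nearly all mice. Ighv1-26, of the large Ighv1 family, had the highest mean value, 439, was the highest member in 8 of 12 mice and was among the 10 highest in all 12. It led in every sham control and in stroke mice 4 and 6. Stroke mice 1, 2, 3 and 5 were led by Ighv14-3, Ighv6-3, Ighv9-3 and Ighv1-9. Ighv1-26 ranged from 152 to 674 in sham controls, with a median of 561, and from 150 to 580 in stroke mice, with a median of 377. Only sham control 6 was low among the sham controls. Ighv1-26 held 3.59% to 7.61% of the Ighv sum. Its log2 fold change was -0.46 (SE 0.37, adjusted p = 0.832, limma), within the spread between mice. It was -0.78 without sham control 6 and -0.54 with sample quality weights, both past the unadjusted threshold of limma (adjusted p = 0.260 and 0.389), and -0.22 without stroke mouse 5.

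Next came Ighv6-3, with a mean of 370. It ranged from 68.8 to 563 in sham controls, with a median of 400, and from 171 to 594 in stroke mice, with a median of 340. Its log2 fold change was 0.04 (SE 0.48, adjusted p = 0.989, limma). The groups overlapped throughout, and sham control 6 was again lowest.

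Ighv1-9 followed, with a mean of 316 and a range of 92.1 to 493 in sham controls and 220 to 489 in stroke mice. Ighv9-3 had a mean of 304 and ranged from 118 to 381 in sham controls and from 136 to 463 in stroke mice. The order is that of the mean values, and differences between members within the same mice were not tested. The remaining 11 of the 15 most abundant members were Ighv1-82, Ighv1-72, Ighv1-80, Ighv1-53, Ighv3-6, Ighv1-55, Ighv1-64, Ighv2-2, Ighv5-16, Ighv5-17 and Ighv14-2, with means from 287 for Ighv1-82 to 160 for Ighv14-2. Ighv1-72 and its close copy Ighv1-62-3 together had 314 ± 163 (SD, n = 6) for sham and 301 ± 168 (SD, n = 6) for stroke.

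The 15 most abundant members held 46.9% of the sum, and the 17 most abundant held 50.4%. Of these 15, 8 had a lower and 7 a higher mean log2 value in stroke mice, with log2 fold changes from -0.46 to 0.23. The smallest adjusted p among them was 0.832. All 15 had overlapping groups.

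**Figure D2:**
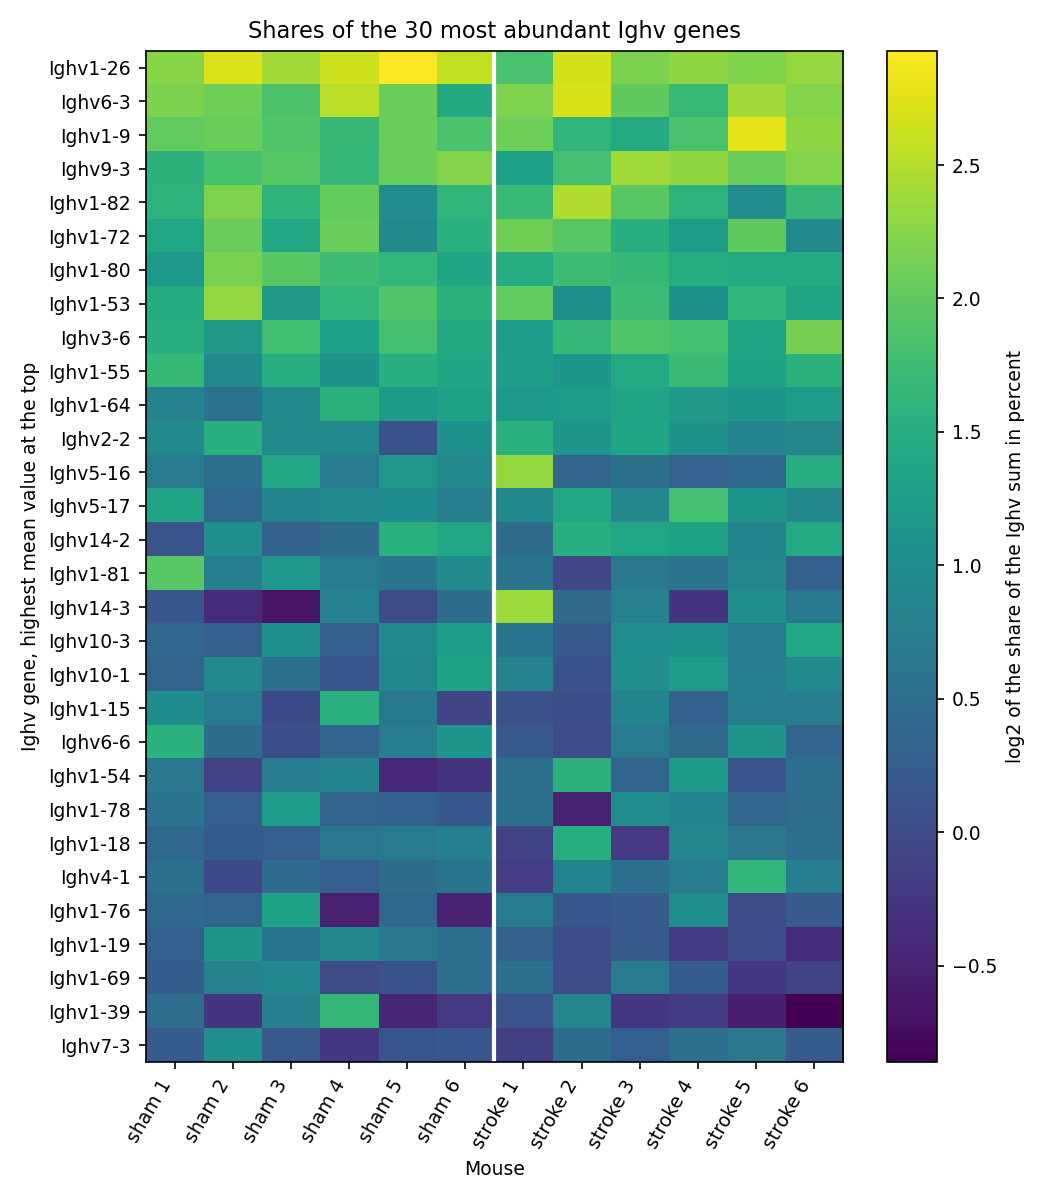
Share of the Ighv sum (colour, log2 of the percent) of the 30 most abundant Ighv genes (rows) in the 12 mice (columns, sham controls left of the white line). Ighv1-26 is bright in every column, and single bright cells, such as Ighv14-3 and Ighv5-16 in stroke mouse 1, mark members that are high in 1 mouse.

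The breadth of the repertoire overlapped between the groups. The effective number of Ighv genes, the exponential of the Shannon index, is the number of equally abundant genes that would give the same evenness. It was 56.1 to 68.5 in sham controls and 55.6 to 62.6 in stroke mice, with means of 60.8 ± 4.42 (SD, n = 6) and 59.5 ± 2.57 (SD, n = 6). The highest value belonged to sham control 6, and without it the difference of the means, -1.37, turned to 0.155. The 10 highest members of a mouse held 34.0% to 42.0% of its Ighv sum in sham controls and 35.3% to 41.1% in stroke mice, and the single highest member held between 4.78% and 7.61%.

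By family, Ighv1 held most of the sum. It has 93 members, of which 39 are pseudogenes and 47 were tested, and it occupies chr12:114351705-116010093, a part of the cluster that also holds members of other families, such as Ighv8 and Ighv10, and that reaches farthest from the D and J segments. Its share was 53.7% to 60.6% in sham controls, with a median of 58.2%, and 51.5% to 56.4% in stroke mice, with a median of 53.7%. The ranges overlapped, and the means were 57.9 ± 2.65% (SD, n = 6) and 53.9 ± 2.01% (SD, n = 6). Sham control 6 was the only sham control whose share was below that of stroke mouse 4, and in sham control 5 it was below that of stroke mouse 2.

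The share of Ighv14, with 4 members, was 2.70% to 5.03% in sham controls, with a median of 3.90%, and 4.43% to 7.65% in stroke mice, with a median of 5.31%. The means were 3.89 ± 1.02% (SD, n = 6) and 5.58 ± 1.22% (SD, n = 6), with overlapping ranges, and the highest share was that of stroke mouse 1. None of the 4 members had an unadjusted p under 0.05 by limma, against 6.12% of all genes tested, and 1 of the 4 was lower in stroke mice, against 48.6%. As scores over several members, family shares are given without a test.

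Ighv5 and Ighv2, whose members lie at chr12:113572927-114320324 and chr12:113574245-113879541 on the side of the D and J segments, held 7.66% and 4.52% on average. Ighv6 held 6.10%, Ighv9 5.70%, Ighv3 4.04%, Ighv10 3.50%, Ighv8 2.49%, Ighv7 2.14%, Ighv4 1.62% and Ighv13 1.20%. Ighv11, Ighv12, Ighv15 and Ighv16 held less than 0.2% each. All of these families had overlapping groups.

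**Figure D3:**
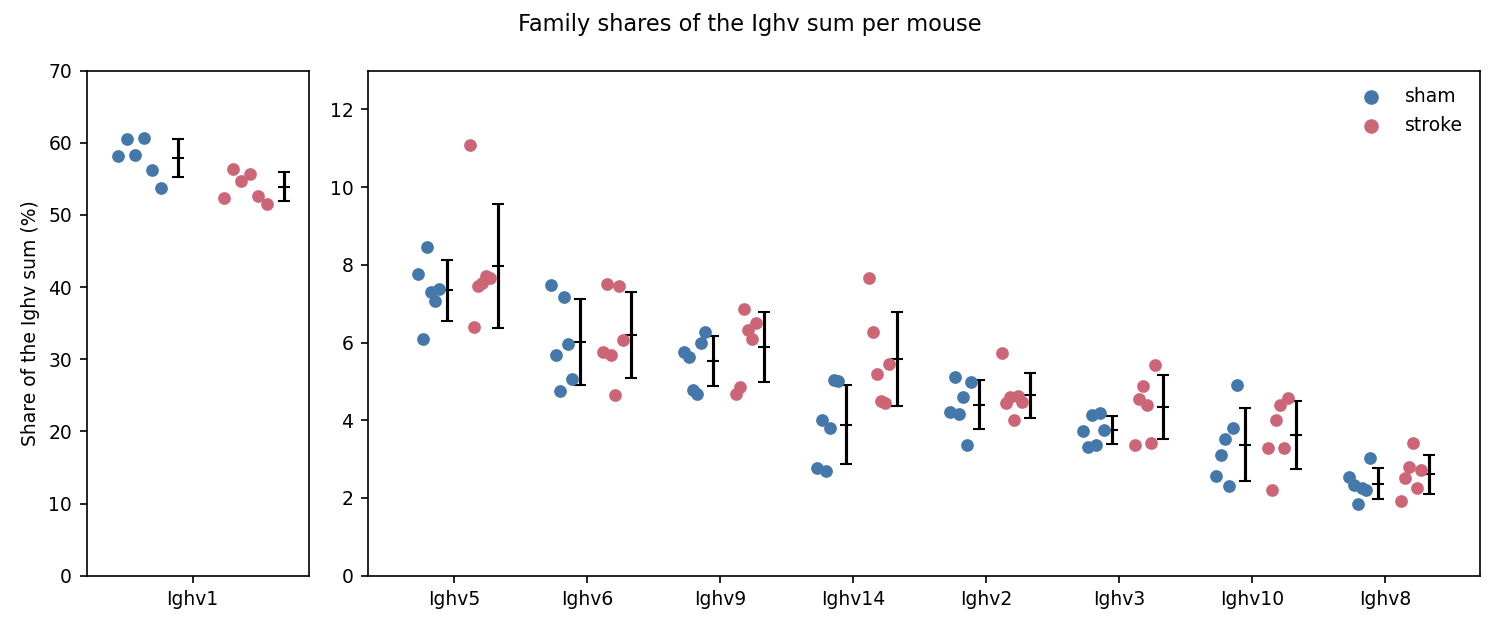
Share of the Ighv sum (percent, axes from 0) of the 9 largest Ighv families, with 1 point per mouse (blue sham, red stroke) and the mean ± SD as a black bar. The Ighv1 points lie between 51.5% and 60.6%, and 1 stroke mouse stands apart at 11.1% for Ighv5.

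For the comparison of stroke mice with sham controls, limma was fitted to log2(value + 0.5) of all 12590 genes at 1 or more in each mouse. Among the 91 Ighv genes tested, 2 had an unadjusted p under 0.05, whereas 6.12% of all genes tested did. Of these 2, 1 was higher in stroke mice (4.42% of all genes tested) and 1 lower (1.69%). With Benjamini-Hochberg adjustment over all genes, no Ighv gene and no other gene had an adjusted p under 0.05 by limma, and the smallest adjusted p of an Ighv gene was 0.791. No Ighv gene had groups that did not overlap, compared with 0.437% of all genes tested. The share of Ighv genes past the unadjusted threshold was not above the background.

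Ighv12-3 was the member that was higher in stroke mice. Its values were 2.68, 8.83, 3.90, 6.81, 3.38 and 9.08 for sham controls 1 to 6 and 5.49, 11.7, 7.22, 8.75, 7.78 and 15.2 for stroke mice 1 to 6. The groups overlapped, with sham controls 2, 4 and 6 inside the stroke range. Its log2 fold change was 0.71 (SE 0.31, unadjusted p = 0.0389, adjusted p = 0.791, limma). As a share of the Ighv sum, however, Ighv12-3 was highest in a sham control, sham control 6, at 0.357% against a median of 0.0846% over all mice. Its unadjusted call was lost without any 1 of sham controls 1, 3 and 5 and stroke mice 2, 4 and 6, with log2 fold changes of 0.54 to 0.71 in those fits. It was also lost with no filter, in 3 of the 4 scalings and without sham controls 1 and 2 together, 11 of 23 alternatives in all, with log2 fold changes of 0.67 to 0.82 in these others.

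Ighv5-15 was the member that was lower. Its values were 53.0, 4.84, 22.8, 29.2, 13.5 and 10.98 for sham controls 1 to 6 and 7.25, 4.74, 12.99, 9.79, 8.46 and 10.4 for stroke mice 1 to 6. The stroke mice lay close together, and the sham controls spread over the stroke range and far above it. Its log2 fold change was -0.97 (SE 0.45, unadjusted p = 0.0495, adjusted p = 0.791, limma). The call was lost without any 1 of sham controls 1, 3, 4 and 5 and stroke mice 1, 2, 4, 5 and 6. Without sham control 1 the log2 fold change was -0.66, and in the other 8 of these fits it was from -1.04 to -0.82. The call was also lost with a pseudocount of 0.1, with both other filters and in 3 of the 4 scalings, 15 of 23 alternatives in all, with log2 fold changes of -0.9997 to -0.85 in these others.

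Ighv1-85 had the lowest log2 fold change of the tested members and was chosen after its values were seen. It was 132, 97.9, 87.6, 120, 85.5 and 11.97 for sham controls 1 to 6 and 31.8, 40.5, 75.0, 41.4, 17.2 and 18.4 for stroke mice 1 to 6. The first 5 sham controls lay above every stroke mouse, and sham control 6 lay below all of them. The log2 fold change was -1.12 (SE 0.53, unadjusted p = 0.0558, adjusted p = 0.791, limma), and it was -1.63 without sham control 6. The gene passed the unadjusted threshold in 8 of 23 alternatives, namely all 4 scalings, quality weights, the replicate number as a block and leaving out sham control 6 or stroke mouse 3, and the smallest adjusted p over all alternatives was 0.206.

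**Figure D4:**
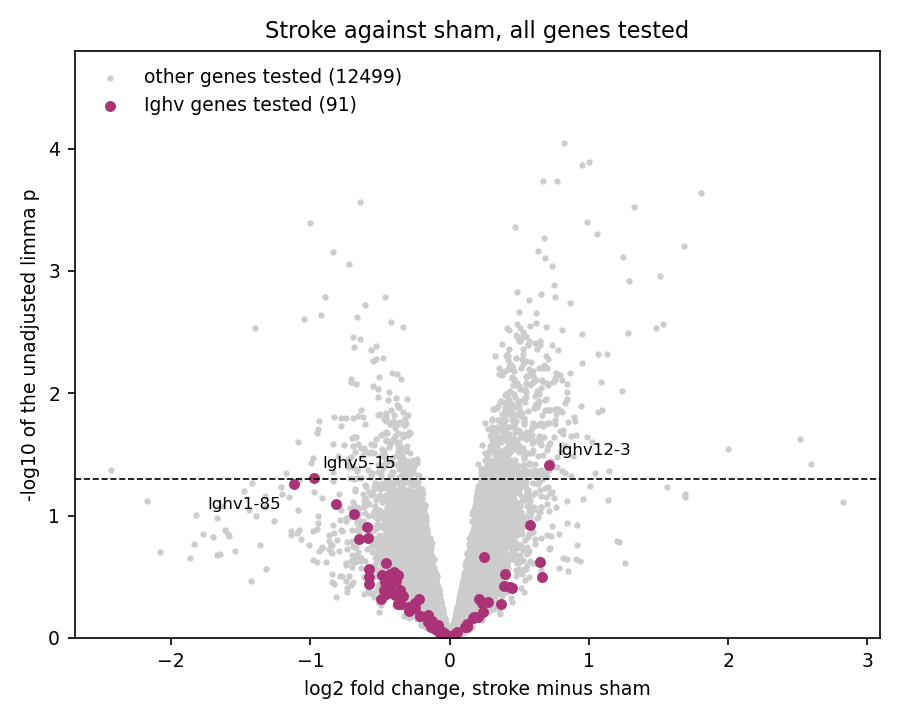
log2 fold change (stroke minus sham, horizontal) against -log10 of the unadjusted limma p (vertical) for the 91 Ighv genes tested (purple) and the 12499 other genes tested (grey). The dashed line is an unadjusted p of 0.05, which Ighv12-3 and Ighv5-15 pass narrowly.

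In direction, 61 of the 91 tested members were lower in stroke mice and 30 higher, that is 67.0% lower, where 48.6% of all genes tested were lower. The median log2 fold change was -0.10 for the members and 0.01 for all genes tested. Of the 47 tested Ighv1 genes 37 were lower, with a median of -0.21, and of the 44 tested genes of other families 24 were lower, with a median of -0.03. After scaling to the same total, which moved the median of all genes to 0.12, the median of the members was 0.03, and 48.4% of the members, 27 of 47 Ighv1 genes among them, were lower, where 28.1% of all genes tested were lower. The counts also moved with single mice. Without stroke mouse 5, 23 of 47 Ighv1 genes and 14 of 46 others were lower, 39.8% of the members against 46.3% of all genes. Without sham control 1 these were 24 of 47 and 19 of 46, 46.2% against 45.3% of all genes, and without sham control 6 they were 44 of 47 and 34 of 44, 85.7% against 53.4%.

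The spread between mice of a group was wide for these genes. The median SD of log2 values within a group was 0.90 for the tested members and 0.31 for all genes tested, and all 91 members were above the latter. With values taken as shares of the Ighv sum, which removes what all members have in common in a mouse, the median SD was 0.52. The median SE of a log2 fold change was 0.46 for the members and 0.17 for all genes.

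The count of 2 depended on single mice. Without sham control 6, 17 Ighv genes had an unadjusted p under 0.05, 1 higher and 16 lower in stroke mice, against 16.6% of all genes in the same fit, 7.39% higher and 9.18% lower, and the median log2 fold change of the members was -0.40. The adjusted count was still 0 by limma. Without stroke mouse 3 the unadjusted count was 4 of 91, or 4.40%, against 6.13% of all genes. It was 1 without sham control 1, against 5.04% of all genes, and 1 without sham control 4, against 5.01%, and without any 1 of sham controls 3 and 5 and stroke mice 2, 4 and 6 it was 0, against 4.82% to 6.55% of all genes. The sign of the median turned without stroke mouse 5, to 0.10, and without sham control 1, to 0.02.

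Some members took a much larger share of the Ighv sum in 1 mouse than in most others. For each tested member, the highest share of the Ighv sum in any mouse was set beside its median share over the 12 mice. The highest was a median of 1.97 times the median share, and in 15 of 91 members it was at least 3 times the median share. In 8 of these 15 the mouse was a sham control and in 7 a stroke mouse, and 10 of the 12 mice had at least 1 such member. Sham control 6 and stroke mouse 5, whose Ighv sums were the smallest, supplied 5 of the 15. In 11 of the 15 the same mouse also had the highest deposited value, 5 in sham controls and 6 in stroke mice, whereas in the other 4, all in sham control 6 or stroke mouse 5, another mouse had a higher value and the share was high over a small sum. The highest share was 1.01 to 2.79 times that of the next mouse. The examples named next, all among the 11, were chosen after their values were seen.

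Ighv14-3 reached 595 in stroke mouse 1, where it was the highest member with 5.20% of the sum, against a median share of 1.38%. In the other 11 mice it was between 35.5 and 171. Ighv5-16 reached 576 in the same mouse, or 5.04% of the sum, and was 42.9 to 263 in the others. Stroke mouse 1 also had the highest Ighv14 and Ighv5 shares, 7.65% and 11.1%.

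Ighv13-2 was 393 in sham control 3, or 3.94% of the sum against a median of 0.795%, and 24.3 to 166 in the others. Its sequence shares no 31-base word with another annotated transcript. Ighv1-39 held 3.16% in sham control 4 against a median of 0.865%, and Ighv7-1 held 2.36% in sham control 5 against 0.635%. By contrast, the 5 members with the highest share in any mouse, Ighv1-26, Ighv1-9, Ighv6-3, Ighv1-82 and Ighv9-3, were below 3 times their own median.

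**Figure D5:**
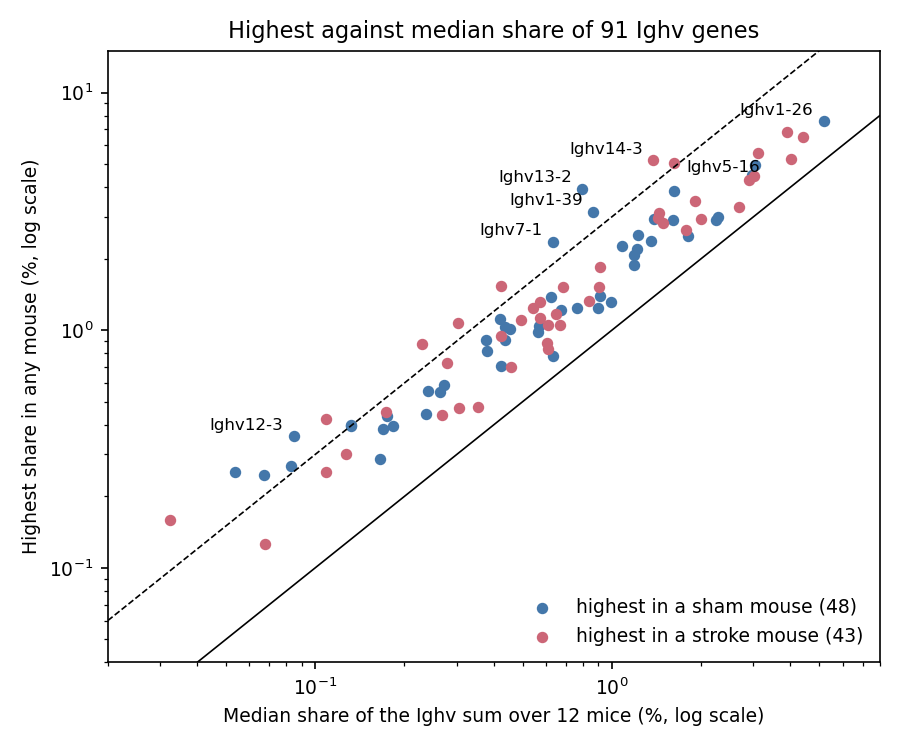
Highest share of the Ighv sum in any mouse against the median share over the 12 mice (percent, both axes log) for 91 tested Ighv genes, coloured by the group of the mouse with the highest share. The solid line is equality and the dashed line is 3 times the median, which 15 genes reach or pass, 8 in sham controls and 7 in stroke mice.

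Of the genes that complete a heavy chain or act on the locus, 1 passed the limma threshold without adjustment and 0 passed it after adjustment. The 8 heavy chain constant genes and Jchain, which encodes the joining chain of polymeric IgA and IgM, make a list of 9, of which 8 were tested. Of these, 0 had an unadjusted p under 0.05 by limma, against 6.12% of all genes tested, and 5 of 8 were lower in stroke mice, against 48.6% of all genes tested. Igha was 188 to 1781 in sham controls and 341 to 1837 in stroke mice, with log2 fold change -0.25 (SE 0.54, adjusted p = 0.931, limma). Jchain was 83.6 to 969 in sham controls and 179 to 670 in stroke mice, with log2 fold change -0.27 (SE 0.52, adjusted p = 0.922, limma). Ighg2b was the constant gene with the highest mean, 2753 ± 1161 (SD, n = 6) for sham and 2466 ± 932 (SD, n = 6) for stroke. Each of these ranges overlapped, and sham control 6 was lowest in all 3. Among the genes that were higher in stroke mice, Ighg2c had a log2 fold change of 0.72 (SE 0.51, adjusted p = 0.815, limma). That of Ighg3 was 0.40 (SE 0.40, adjusted p = 0.859, limma), and the groups overlapped for both.

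Of 20 regulators and recombination genes, 14 were tested and 1 had an unadjusted p under 0.05, a share near the 6.12% of all genes tested. Tcf3, which encodes the E2A transcription factors of B cell development, was 92.0 to 123 in sham controls and 119 to 162 in stroke mice, with log2 fold change 0.41 (SE 0.11, unadjusted p = 0.00294, adjusted p = 0.716, limma). Pou2af1, the B cell coactivator that binds octamer factors at antibody gene promoters, was 151 ± 39.7 (SD, n = 6) and 156 ± 43.7 (SD, n = 6). The 6 genes below the filter were those of V(D)J recombination and the surrogate light chain, which act in precursor B cells. Rag1 was at most 0.210, Rag2 0.948 to 2.10, Dntt at most 1.003, Igll1 at most 0.339 and Vpreb1 at most 0.659, and Vpreb2 was listed at 0 in all 12 mice.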

How the data were processed

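RNA-seq reads of PP B cells were processed by the authors, who per the methods checked them with FastQC, trimmed them with Trimmomatic 0.39 and quantified them with kallisto 0.48.0 against Ensembl release 102 (GRCm38), with sleuth 0.30.0 in R 4.1.2. These versions are those of the submitters' processing notes. The deposited table gives 1 expression signal for each gene and mouse, under the label normalized TPM. Its column totals differ, so it was not read as plain TPM, and no counts or depths were used here. kallisto divides reads shared by similar transcripts by estimate, which can move value between similar Ighv genes.

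Ighv rows were selected by name. The log2(value + 0.5) of 12590 genes at 1 or more in every mouse was tested with limma 3.58.1 in R 4.3.3, 6 against 6 mice, without a block, and adjusted by Benjamini-Hochberg over all of them. Fold changes of low genes are understated by the pseudocount. The p-values set a group difference against the spread between mice of a group, as moderated by limma over all genes tested. Sums, shares and the effective number were given without tests. Sequences were taken from GENCODE M21 transcripts with Biopython 1.88, and identity was counted over alignments of coding sequences. The limma fit was also run on simulated data with independent noise in each gene. Such data lack shifts that many genes share in a mouse, so they cannot check the fit where such shifts occur.

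Named genes were the 15 Ighv genes with the highest mean, those at an unadjusted p under 0.05 or with groups that do not overlap, the 5 with the highest share in any mouse, and listed constant, regulator and recombination genes. Some genes under this rule are not reported here. The name rule for members used no expression value, but it and the lists were set with earlier results of these data known. Alternatives were pseudocounts, filters, scalings, quality weights, a replicate block and leaving out mice.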

Additional observations from a re-analysis of the deposited data

Results flagged for a closer look

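Of 72 groups of 6 mice checked for a mouse far from the others of its group, 10 were flagged, and chance alone flags about 1 in 20 groups. The groups share mice and the shares share a sum, so the checks are not independent.

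Sham control 6 was flagged 4 times. Its pseudogene share of the Ighv sum, 1.999%, was the highest of the sham controls, with 0.755% in the next. Its Ighj sum, 4997, was the highest, with 2962 in the next. Its values of Ighv1-26, 152, and Ighv9-3, 118, were the lowest, with 529 and 297 in the nearest sham controls. Its total of 559570 and its plasma cell sum of 518 were the lowest of all mice, although without Igha and Jchain the plasma cell sum was lower in stroke mouse 5, at 207, than here, at 246, and their part in these values was not tested.

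Stroke mouse 1 was flagged 4 times, each as the highest of the stroke mice. Its Ighv5 share was 11.1%, with 7.70% in the next, and its Ighv2 share was 5.73%, with 4.63% in the next. Its Ighv5-16 was 576, with 197 in the next, and its Ighv14-3 was 595, with 152 in the next.

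In sham control 3 Ighv13-2 was 393, with 87.2 in the next sham control. In stroke mouse 5 Ighv per unit of Igkv value was 1.01, the highest of the stroke mice, with 0.923 in the next.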

How the results depend on the processing

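No adjusted p of an Ighv gene was under 0.05 in any of the 23 alternatives, and over all genes 0 passed in 21 of them and 1 in each of the other 2. The count of Ighv genes at an unadjusted p under 0.05, 2 as reported, was 1 with a pseudocount of 0.1 (6.12% of all genes tested), 1 with a filter on the mean (5.89%), 1 of 92 or 1.09% after scaling to the same Ighv sum (0.577%) and 1 without sham controls 1 and 2 together (4.60%). It was 10 with sample quality weights (12.5% of all genes tested), of which 9 were lower in stroke mice (9.89% of members, 5.58% of all genes), and from 0 to 17 when each mouse was left out in turn. The labels give both groups replicate numbers from 1 to 6 but not what they stand for. With the number as a replicate block the count was 7 of 91, against 9.32% of all genes tested, and 6 of the 7 were lower (6.59% of members, 3.21% of all genes). With this block Ighv12-3, higher in stroke in 6 of 6 same-numbered pairs, had an unadjusted p of 0.000592 and an adjusted p of 0.334 by limma. In the same fit Ighv1-85 passed the unadjusted threshold, with an unadjusted p of 0.0126 and an adjusted p of 0.464 by limma. The correlation of the deviations of same-numbered mice was from 0.0134 to 0.494 and over 0.1 in 4 of 6 pairs. Its mean was 0.218 against -0.04 for other pairs, and 2 of 6 sham controls correlated best with their own number. Whether same-numbered mice were paired was not tested. As the meaning of the numbers is unknown, the main fit had no block, and the block is given as an alternative only.

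The log2 fold change of Ighv6-3, 0.04 as reported, turned to -0.31 with quality weights, and it ranged from -0.40 to 0.23 when each mouse was left out, being -0.40 without sham control 6, -0.09 without stroke mouse 1 and -0.13 without stroke mouse 2. Of the 15 most abundant members, 12 changed sign in at least 1 alternative. The log2 ratio of the Ighv sums was from -0.36 to -0.02 with each mouse left out and 0.06 without sham controls 1 and 2. The cause of these shifts was not tested. Without read numbers, the error of low members such as Ighv12-3 cannot be given.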
